A study of Mus musculus with 36 samples.

Results

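Complement is a set of plasma and membrane proteins that tag and clear microbes and dying cells. Transcripts of 9 complement genes were followed in the distal colon of mice in a colitis experiment. They were the C1q chains C1qa, C1qb and C1qc, the components C2 and C3, factor B (Cfb), the anaphylatoxin receptors C3ar1 and C5ar1, and the C1 inhibitor Serping1. The genes were chosen by name, with earlier results of these data known. Each was represented by the probe set that the platform annotation assigns to that gene alone. Where there were several, the one with the highest mean over all 36 arrays was used. A probe set is the group of array probes that measures 1 transcript region. Of the 9 genes, 8 were measured by this rule, each by 1 probe set, out of 19938 genes that had such a probe set and 28853 probe sets on the array, and C3 was not analysed here.

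The mice fell into 5 groups by title: 9 were Control and 7 received a scrambled siRNA. Another 6 received siTNF, an siRNA that targets Tnf and carries no stated modification. The same target was addressed in 6 mice with siTNF-OMe, whose nucleotides are O-Methyl modified, and in 8 mice with siTNF-OMe-P, in which the modification is O-Methyl-propanediol. Tnf encodes the inflammatory cytokine tumour necrosis factor, and the siRNAs were given into the rectum. The labels record 5% dextran sulfate sodium (DSS), which damages the colon lining, for every animal including Control, whereas the design text lists the siRNA-dosed groups alone. What Control animals received is therefore not settled, and Control is used below as a group name. Control colons were longer than those of the dosed animals, at 7.2 to 8.1 against 5.2 to 7.1 without overlap, and Control myeloperoxidase (MPO) activity, an enzyme activity of neutrophils, was 0.0090 to 0.0880 against 0.0310 to 1.35 U per mg. The labels give these lengths as mm, but the weight-to-length ratios in the labels are close to those of lengths in cm. Strain, sex and age are not stated in the labels.

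The classical pathway of complement begins when C1q, a complex of the C1qa, C1qb and C1qc chains made mainly by macrophages, binds antibody or a cell surface. C1r and C1s, held in the same complex, then cut C4 and C2, and the fragments form an enzyme that cuts C3. Factor B supplies the catalytic part of the corresponding enzyme of the alternative pathway. The released fragments C3a and C5a act through C3ar1 and C5ar1 on myeloid cells, and the C1 inhibitor encoded by Serping1 blocks C1r and C1s. In the gut, complement transcripts are known from epithelium, stroma and macrophages. In RNA from whole tissue, more cells of a type and more RNA per cell cannot be told apart.

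The C1q genes lie side by side on chromosome 4, in the order C1qb, C1qc and C1qa, and Cfb and C2 are neighbours on chromosome 17. C3ar1 is on chromosome 6, C5ar1 lies beside the related receptor gene C5ar2 on chromosome 7, and Serping1 is on chromosome 2. RefSeq promoter entries (GRCm38) matched 4 of the 8 measured genes. Shown here are the 250 bases before the annotated start of C1qb and C1qc, whose signals rose and fell together across arrays, and of the receptor gene C3ar1, whose signal varied apart from theirs within groups. All 3 lie on the minus strand and are written 5′ to 3′, with matches to the searched motifs in capitals.
C1qb, chr4:136886201-136886450: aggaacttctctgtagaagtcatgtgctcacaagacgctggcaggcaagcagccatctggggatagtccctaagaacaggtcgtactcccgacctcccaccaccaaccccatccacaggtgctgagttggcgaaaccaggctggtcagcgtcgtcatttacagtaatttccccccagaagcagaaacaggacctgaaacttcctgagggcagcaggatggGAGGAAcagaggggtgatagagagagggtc
C1qc, chr4:136892915-136893164: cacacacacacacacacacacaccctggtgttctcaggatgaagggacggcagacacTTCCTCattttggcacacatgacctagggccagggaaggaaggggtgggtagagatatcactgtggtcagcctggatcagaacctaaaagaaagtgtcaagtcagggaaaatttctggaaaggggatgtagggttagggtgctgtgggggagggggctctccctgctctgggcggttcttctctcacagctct
C3ar1, chr6:122856158-122856407: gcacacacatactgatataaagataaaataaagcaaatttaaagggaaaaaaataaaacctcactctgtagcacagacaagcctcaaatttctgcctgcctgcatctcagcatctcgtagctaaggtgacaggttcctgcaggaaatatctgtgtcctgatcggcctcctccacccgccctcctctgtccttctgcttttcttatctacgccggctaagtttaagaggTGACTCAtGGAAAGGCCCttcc

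The motifs, searched on both strands, were GAGGAA for PU.1, a myeloid transcription factor, GAAA and GAAA with 2 free bases between for the interferon-stimulated response element, TTCNNNGAA for STAT factors, GGG and TTTCC with 2 free bases between for NF-kB, and TGANTCA for AP-1. The PU.1 letters were found once in C1qb, 30 to 25 bases before the start, and once in C1qc on the opposite strand, 193 to 188 bases before it. Windows of the same length hold these letters in 23.3% of 32851 promoters. The C3ar1 window held the AP-1 letters 22 to 16 bases and the NF-kB letters, on the opposite strand, 14 to 5 bases before the start, which occur in 6.75% and 1.41% of promoters. None of the 5 motifs was found in the C5ar1 window, and the remaining 2, for interferon-stimulated response elements and STAT factors, were in none of the 4 windows (2.98% and 7.02% of promoters). A match describes the letters of a window and is not evidence of binding.

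RNA was measured on 1 Affymetrix array per animal, and the signals are given on a log2 scale, where a difference of 1 is a doubling. Markers of colon epithelium were high, with Krt8 at a mean of 13.45 to 13.53 and Epcam at 12.22 to 12.37 in the 5 groups. Precision is limited by how many arrays a group has. Within an array, the SD of the signals ran from 1.55 to 1.89. The main axis along which the 36 arrays differed (principal component 1) accounted for 48.8% of the variation between them. Its r with the array SD was -0.969. There were 8 arrays under 1.7: Control replicates 4, 5, 6 and 8, scrambled replicate 5, siTNF replicate 3, and siTNF-OMe-P replicates 2 and 8. They made up 4 of 9 arrays in Control and 1 of 7 in scrambled. In siTNF they were 1 of 6, in siTNF-OMe 0 of 6 and in siTNF-OMe-P 2 of 8. Among them, Control replicates 4 and 8 had the lowest Control signals of C1qa, C1qb, C1qc, Cfb and Serping1, whereas siTNF replicate 3 had the highest siTNF signals of C1qb, C1qc, C3ar1, C5ar1 and Serping1. Differences from Control are therefore also given without the 8 narrow arrays for C1qa, C2, Cfb, C3ar1 and Serping1. For the 8 genes together, the counts that passed and the medians are given without them.

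The 8 measured complement genes rose over Control in each of the 4 siRNA-dosed groups. The largest differences were in the C1q chains, at 1.31 to 1.68 on the log2 scale (2.47-fold to 3.20-fold), followed by Serping1 and the anaphylatoxin receptors at 0.87 to 1.26. C2 and Cfb moved least, by 0.41 to 0.71 (1.33-fold to 1.63-fold). Without the narrow arrays this order did not hold, since C2 then differed by 0.82 in scrambled and 0.69 in siTNF and Serping1 by 0.67 and 0.58. Taking scrambled, siTNF, siTNF-OMe and siTNF-OMe-P in turn, the median of the 8 differences was 1.01, 1.08, 1.26 and 1.14, against medians over all probe sets of -0.03, -0.04, -0.05 and -0.03. All 8 of 8 passed limma with Benjamini-Hochberg adjustment over all probe sets at 0.05 in each comparison, where the background of probe sets called higher was 7.27%, 9.09%, 9.01% and 9.35% (11.7%, 13.8%, 14.8% and 15.9% in either direction). The 4 comparisons share the Control arrays, so they are not independent of each other. Because the 8 genes were chosen with earlier results known, the background shares describe the array and do not test the set. Within each single batch the 8 genes were above Control in every comparison, by 0.03 to 1.99, and 0 to 8 of them passed.

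Every array of the siRNA-dosed group lay above every Control array for 6 of the 8 genes in scrambled, 7 in siTNF, 8 in siTNF-OMe and 6 in siTNF-OMe-P. Over all probe sets, 1.82%, 2.29%, 4.56% and 2.5% were separated in this direction. The genes whose arrays overlapped with Control were C2 and Cfb in scrambled, C2 in siTNF, and C2 and Cfb in siTNF-OMe-P. Without the 8 narrow arrays the counts that passed were 8, 8, 8 and 7, beside 28%, 8.62%, 29.9% and 26.1% of all probe sets called higher, and the medians of the 8 genes were 0.94, 0.91, 1.16 and 1.07.

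**Figure D1:**
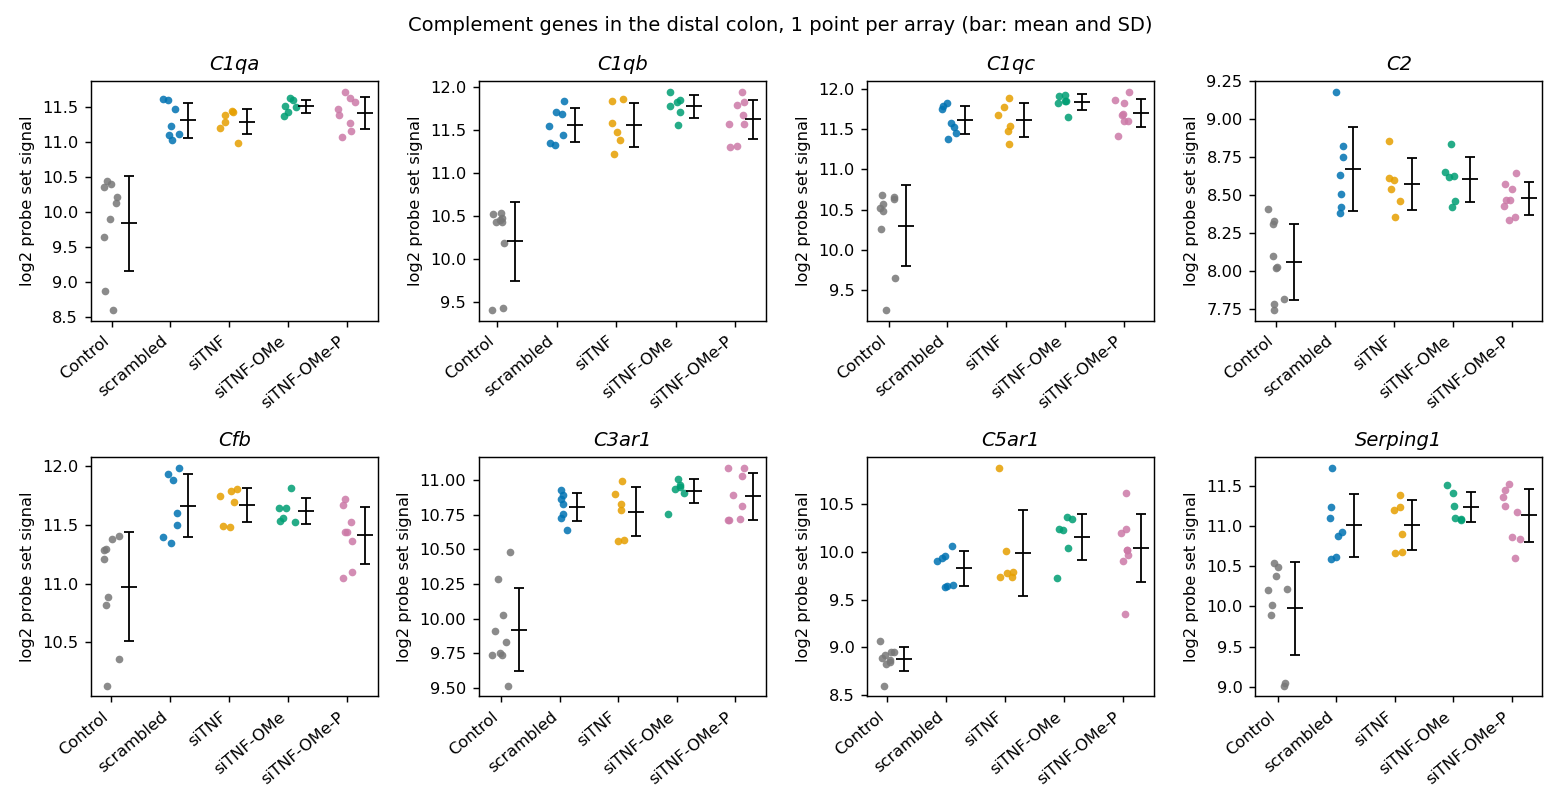
Signal of the 8 measured complement genes (vertical axis, log2 probe set signal) in each array of the 5 groups (horizontal axis), with 1 point per animal and the mean and SD as a bar. The Control mean lies lowest for each gene, with C1qa, C1qb, C1qc, C3ar1, C5ar1 and Serping1 fully below the siRNA-dosed arrays, and the 4 siRNA-dosed groups overlap.

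C1qa (probe set 10517517) encodes the A chain of C1q. Its log2 signal in Control ran from 8.61 to 10.45 with a median of 10.13. In scrambled it ran from 11.03 to 11.62 (median 11.24), in siTNF from 10.99 to 11.45 (11.34), in siTNF-OMe from 11.38 to 11.63 (11.52) and in siTNF-OMe-P from 11.08 to 11.72 (11.44). The groups were thus split into Control on one side and the 4 siRNA-dosed groups on the other, with 2 Control arrays, the narrow replicates 4 and 8, far below the rest. The differences from Control were 1.49 ± 0.19 (SE), 1.43 ± 0.20, 1.68 ± 0.20 and 1.56 ± 0.18 in the order scrambled, siTNF, siTNF-OMe and siTNF-OMe-P, which is kept below, with limma adjusted p of 7.77e-07, 3.07e-06, 1.47e-07 and 1.26e-07. Without the narrow arrays they were 1.05, 0.96, 1.20 and 1.14, and each still passed.

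C1qb (probe set 10517508), the B chain, ran from 9.41 to 10.53 in Control, with a median of 10.43. The medians of the dosed groups were 11.55 in scrambled (11.32 to 11.84), 11.52 in siTNF (11.22 to 11.86), 11.80 in siTNF-OMe (11.56 to 11.94) and 11.63 in siTNF-OMe-P (11.31 to 11.94). No dosed array reached down to the Control range, and the dosed groups overlapped with each other. The differences were 1.36 ± 0.14, 1.36 ± 0.15, 1.56 ± 0.15 and 1.41 ± 0.14 (SE) in the same order, with limma adjusted p between 3.34e-09 and 7.73e-08.

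C1qc (probe set 10517513), the C chain, ran from 9.25 to 10.68 in Control (median 10.52). It ran from 11.38 to 11.82 in scrambled (median 11.58), 11.31 to 11.89 in siTNF (11.61), 11.65 to 11.92 in siTNF-OMe (11.85) and 11.42 to 11.96 in siTNF-OMe-P (11.68). As for the other chains, the lowest dosed array lay above the highest Control array. The differences were 1.33 ± 0.15, 1.31 ± 0.16, 1.54 ± 0.15 and 1.40 ± 0.14 (SE), with limma adjusted p between 8.97e-09 and 2.80e-07. Within each of the 5 amplification or hybridization batches taken alone, the 3 chains were above Control in each comparison, by 0.92 to 1.99. Depending on chain and comparison, 3 to 5 of the 5 batches passed.

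C2 (probe set 10450344) is the component cut by C1s. Control ran from 7.75 to 8.41 with a median of 8.03. Scrambled ran from 8.39 to 9.18 (median 8.64), siTNF from 8.36 to 8.86 (8.57), siTNF-OMe from 8.42 to 8.84 (8.62) and siTNF-OMe-P from 8.34 to 8.65 (8.47). Control replicate 8 (8.41), a narrow array, reached into the range of scrambled, siTNF and siTNF-OMe-P but not of siTNF-OMe. The next Control array, replicate 4, was at 8.33, below every dosed array. Scrambled replicate 2 was the highest of all 36 arrays. The differences were 0.62 ± 0.11, 0.52 ± 0.11, 0.54 ± 0.11 and 0.41 ± 0.10 (SE), with limma adjusted p of 9.53e-05, 1.14e-03, 5.86e-04 and 3.96e-03. Unlike the C1q chains, C2 was high in the narrow Control arrays, and without the 8 narrow arrays its differences were 0.82, 0.69, 0.72 and 0.59. Within single batches C2 was above Control throughout, by 0.26 to 1.10. It passed in 3 of the 5 batches in scrambled and in 1 of 5 in each of the other comparisons.

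Cfb (probe set 10450325), the alternative pathway protease, ran from 10.13 to 11.41 in Control with a median of 11.21. Scrambled ran from 11.35 to 11.99 (median 11.60), siTNF from 11.48 to 11.81 (11.72), siTNF-OMe from 11.52 to 11.81 (11.60) and siTNF-OMe-P from 11.05 to 11.72 (11.44). The lowest Control values were again in the narrow replicates 4 and 8, and the 2 lowest siTNF-OMe-P values were in its narrow replicates 2 and 8. The differences were 0.71 ± 0.14, 0.67 ± 0.15, 0.65 ± 0.15 and 0.43 ± 0.14 (SE), with limma adjusted p of 7.05e-04, 1.72e-03, 2.06e-03 and 0.0267. Without the narrow arrays the differences were 0.42, 0.40, 0.32 and 0.22, and the last did not pass (limma adjusted p = 0.0555). The siTNF-OMe-P call was also lost without Control replicate 4 (0.32, adjusted p = 0.0557) or replicate 8 (0.37, 0.0592), and without siTNF-OMe-P replicate 1 (0.41, 0.0574), 3 (0.42, 0.0535) or 4 (0.39, 0.0613).

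C3ar1 (probe set 10547657), the receptor for C3a, ran from 9.52 to 10.48 in Control with a median of 9.83. Scrambled ran from 10.64 to 10.93 (median 10.83), siTNF from 10.56 to 10.99 (10.81), siTNF-OMe from 10.76 to 11.01 (10.94) and siTNF-OMe-P from 10.71 to 11.09 (10.85). All dosed arrays lay above Control, and the ranges of the dosed groups overlapped with one another. The differences were 0.89 ± 0.10, 0.87 ± 0.10, 1.00 ± 0.10 and 0.95 ± 0.09 (SE), with limma adjusted p between 6.11e-09 and 2.40e-07, and without the narrow arrays they were 1.00, 0.93, 1.12 and 1.12.

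C5ar1 (probe set 10560242), the receptor for C5a on neutrophils and macrophages, had the narrowest Control range, from 8.60 to 9.07 with a median of 8.89. Scrambled ran from 9.64 to 10.07 (median 9.90), siTNF from 9.74 to 10.88 (9.78), siTNF-OMe from 9.73 to 10.37 (10.23) and siTNF-OMe-P from 9.35 to 10.61 (10.02). Replicate 3 was the highest array in both siTNF and siTNF-OMe-P, and these 2 arrays also had the highest mean levels of 12 neutrophil markers (10.14 and 9.38). In siTNF-OMe-P, replicate 7 was low at 9.35, with the next array at 9.90. The differences from Control were 0.95 ± 0.13, 1.13 ± 0.14, 1.26 ± 0.14 and 1.14 ± 0.13 (SE), with limma adjusted p between 4.68e-08 and 4.32e-06. Within single batches C3ar1 was above Control by 0.63 to 1.24 and C5ar1 by 0.82 to 1.51.

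Serping1 (probe set 10484463), the inhibitor of C1r and C1s, ran from 9.02 to 10.55 in Control with a median of 10.21. Scrambled ran from 10.59 to 11.73 (median 10.92), siTNF from 10.66 to 11.39 (11.06), siTNF-OMe from 11.07 to 11.51 (11.18) and siTNF-OMe-P from 10.60 to 11.53 (11.21). The gap to Control was small at its edge, 10.55 against 10.59 in scrambled, although no arrays overlapped. The differences were 1.07 ± 0.18, 1.03 ± 0.19, 1.26 ± 0.19 and 1.13 ± 0.17 (SE), with limma adjusted p of 6.88e-05, 1.69e-04, 7.91e-06 and 1.07e-05. Without the narrow arrays they were 0.67, 0.58, 0.83 and 0.79, and each passed.

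Between the siRNA-dosed groups, the comparisons asked whether the chemistry of the siRNA, or its being directed at Tnf at all, was accompanied by a different complement level. None of the 8 genes passed in any of the 6 comparisons. In limma 0% of probe sets passed in each of them at the adjusted threshold, and the members with an unadjusted p under 0.05 numbered 0 in 5 comparisons and 1 in siTNF-OMe over scrambled. At that unadjusted threshold, 311 probe sets (1.08%) passed in siTNF over scrambled, 455 (1.58%) in siTNF-OMe over scrambled and 836 (2.90%) in siTNF-OMe-P over scrambled. In siTNF-OMe over siTNF 494 (1.71%) passed, in siTNF-OMe-P over siTNF 1002 (3.47%) and in siTNF-OMe-P over siTNF-OMe 74 (0.26%). Each share is smaller than this threshold passes by chance alone. The order of the 4 dosed groups was therefore not resolved for any gene, and only Control stood apart at the low end. The fit shares 1 spread per gene over all 5 groups, Control included. For C1qa the SD was 0.68 in Control and 0.10 to 0.25 in the dosed groups, so Control widens its intervals. For C5ar1 the SD was lower in Control, 0.13 against 0.18 to 0.45. With only the 2 groups compared in the fit, no gene passed either.

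The unmodified siTNF differed from scrambled by -0.10 to 0.18 across the 8 genes. For C1qa the difference was -0.06 (95% interval -0.49 to 0.36) and for C2 it was -0.10 (-0.34 to 0.14). For siTNF-OMe over scrambled the 8 differences ran from -0.08 to 0.31. C5ar1 had the largest, 0.31 (0.01 to 0.61), with an unadjusted limma p of 0.0412 and an adjusted p of 1.00. C1qc was 0.21 higher there (-0.12 to 0.54) and Serping1 0.19 higher (-0.21 to 0.60).

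For siTNF-OMe-P over scrambled, the enzyme genes C2 and Cfb were the lowest of the 8, at -0.21 (-0.43 to 0.02) and -0.27 (-0.57 to 0.03). All 8 siTNF-OMe-P arrays were below the scrambled mean for C2, but the lowest scrambled arrays overlapped with them. That mean (8.67) includes scrambled replicate 2 at 9.18, and siTNF-OMe-P replicate 1 (8.65) lay above the scrambled median of 8.64. The other 6 genes were 0.04 to 0.19 higher, with intervals that span 0. Between the modified siRNAs, siTNF-OMe-P over siTNF-OMe, each of the 8 differences was below 0, from -0.21 for Cfb (-0.53 to 0.10) to -0.05 for C3ar1 (-0.27 to 0.16), against a median of 0.01 over all probe sets, and none passed. The shared sign is not 8 separate results, since C1qa, C1qb, C1qc and Serping1 correlated at 0.89 to 0.97 within groups. Of the narrow arrays, 2 were in siTNF-OMe-P and 0 in siTNF-OMe, and their part in the shared sign was not tested. For siTNF-OMe over siTNF the 8 differences ran from -0.02 for Cfb to 0.24 for C1qa (-0.20 to 0.68), and for siTNF-OMe-P over siTNF from -0.24 for Cfb (-0.55 to 0.08) to 0.12 for C1qa (-0.29 to 0.54). With intervals of this width, the comparisons do not show that the siRNAs act alike.

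**Figure D2:**
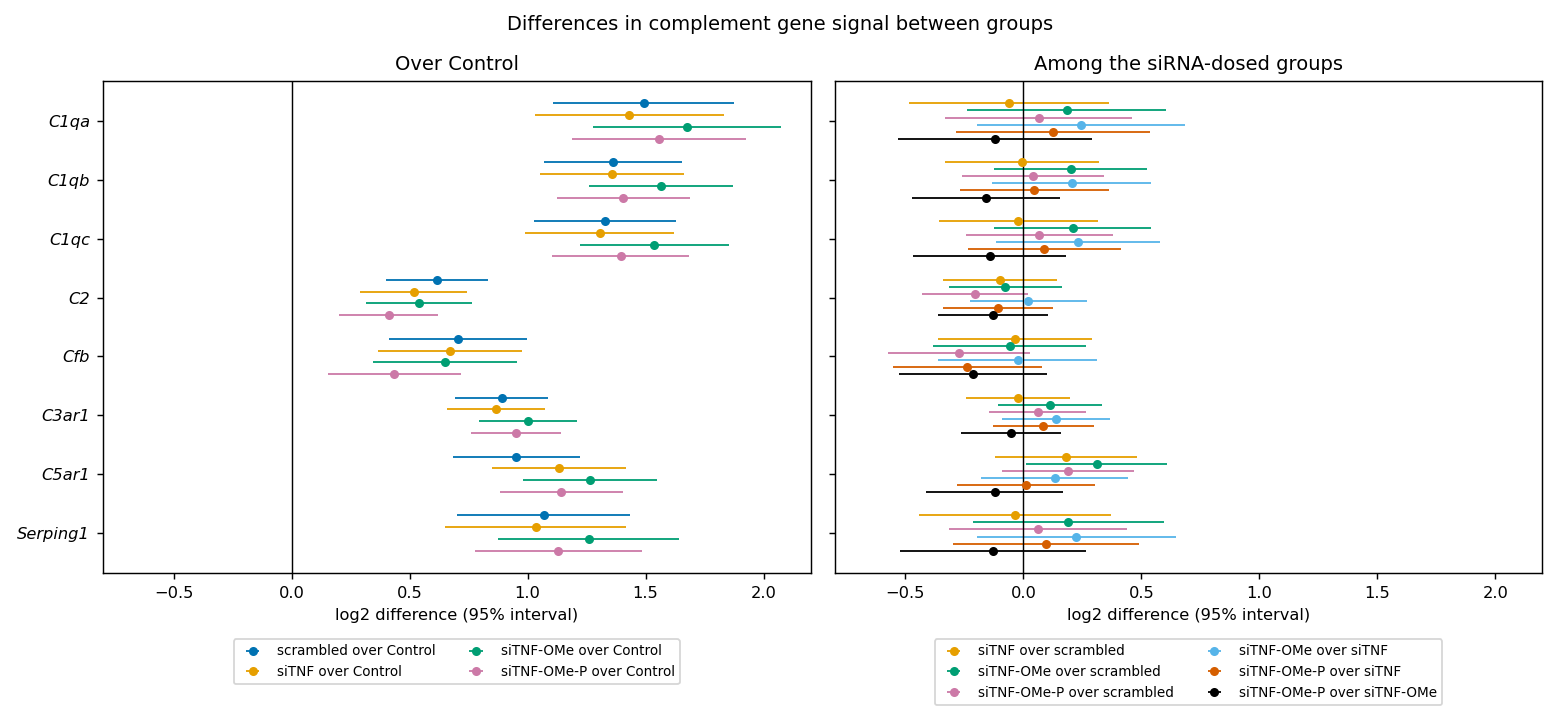
Differences in log2 signal (horizontal axis) for each complement gene (vertical axis), with points for the estimate and bars for its 95% interval, over Control on the left and among the siRNA-dosed groups on the right. Over Control every interval lies above 0, and among the dosed groups every interval spans 0 except that of C5ar1 in siTNF-OMe over scrambled (0.01 to 0.61).

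Beyond the 8 genes, 42 other complement genes were measured. Over Control, 13 rose and 1 fell in scrambled, 12 rose and 2 fell in siTNF, 15 rose and 3 fell in siTNF-OMe, and 14 rose and 4 fell in siTNF-OMe-P, with median differences of 0.03, -0.02, 0.03 and 0.03. Over all probe sets, 4.45%, 4.71%, 5.81% and 6.58% fell. In the 6 comparisons among dosed groups none passed. Without the narrow arrays the counts were 24 and 3, 14 and 4, 24 and 6, and 20 and 5, in fits where 28%, 8.62%, 29.9% and 26.1% of all probe sets rose and 21.9%, 12.2%, 24.1% and 21.9% fell.

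In the classical and lectin pathways, 9 of 17 measured genes rose in scrambled, 9 in siTNF, 10 in siTNF-OMe and 9 in siTNF-OMe-P, and none fell. Outside the C1q chains and C2, the proteases C1s1 and C1ra rose by 0.83 ± 0.20 and 0.31 ± 0.07 (SE) in scrambled over Control, with limma adjusted p of 3.43e-03 and 3.59e-03. C4b, the component cut by C1s, rose by 1.13 ± 0.14 and C4a by 0.33 ± 0.08, but the genes are near-identical copies and their signals may not be separable. The ficolin gene Fcna, whose product starts the lectin pathway, rose by 0.83 ± 0.10 (adjusted p = 6.87e-07). The mannose-binding lectins Mbl1 and Mbl2 and the lectin proteases Masp1 and Masp2 were not among the genes that passed in scrambled. C1s1 lost its call in siTNF over Control when the narrow arrays were left out.

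Of the alternative pathway, Cfb and properdin (Cfp), which stabilises its enzyme, were the 2 genes measured, and both rose in each dosed group, Cfp by 0.55 ± 0.11, 0.56 ± 0.11, 0.91 ± 0.11 and 0.77 ± 0.10 (SE). Among 7 terminal components, which build the pore in a target membrane, C7 alone rose in scrambled (0.37 ± 0.12, limma adjusted p = 0.0325), in siTNF-OMe (0.38) and in siTNF-OMe-P (0.32), and none rose in siTNF. C8g, named after its values were seen, fell by 0.32 and 0.34 in siTNF-OMe and siTNF-OMe-P. The call of C8g in siTNF-OMe was lost with quantile normalization. The terminal list's median was -0.10, -0.17, -0.12 and -0.08 in the 4 comparisons. The mean level of this list was low, at 7.12 to 7.26 in the 5 groups.

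Of 9 complement receptors, 6 rose in scrambled, 5 in siTNF, 6 in siTNF-OMe and 6 in siTNF-OMe-P. In scrambled over Control, Cd93, a receptor-like protein of endothelium and myeloid cells first described for C1q, rose by 1.03 ± 0.11 (SE), and Itgb2, the shared beta chain of complement receptors 3 and 4, rose by 0.88 ± 0.11. The alpha chains Itgam and Itgax rose by 0.49 ± 0.14 and 0.45 ± 0.10. Cr2, the B cell receptor for C3 fragments, fell in each group, by 0.41 ± 0.12, 0.52 ± 0.12, 0.44 ± 0.12 and 0.34 ± 0.11. The Cr2 signal was low, with group means of 6.52 to 7.04, and low signals cannot be told from background. With quantile normalization the calls of Itgam and Cr2 in scrambled, and of Cr2 in siTNF-OMe-P, were lost. C5ar2, the neighbour of C5ar1, was 0.11 higher in scrambled and did not pass.

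Of 15 regulators, which restrain complement on host cells or in plasma, 3 rose in scrambled and 4 in each of the other dosed groups. Cd55, which speeds decay of the C3-cutting enzymes, rose by 1.53 ± 0.28, 1.58 ± 0.29, 1.94 ± 0.29 and 1.59 ± 0.27 (SE), differences as large as those of the C1q chains. Cd59a, which blocks pore assembly, rose by 0.67 ± 0.16, 0.85 ± 0.17, 0.97 ± 0.17 and 1.05 ± 0.15, and its call in scrambled was lost without the narrow arrays. Cpn1, a subunit of the carboxypeptidase that trims C3a and C5a, fell in siTNF, siTNF-OMe and siTNF-OMe-P by 0.31, 0.27 and 0.30, calls that were lost without the narrow arrays, and C4bp fell by 0.38 in siTNF-OMe-P. Of genes not called in scrambled, Cpn2 rose in siTNF by 0.38 and clusterin (Clu) in siTNF-OMe and siTNF-OMe-P by 0.40 and 0.46, of which the calls of Clu were lost without the narrow arrays. These 4 genes were named after their values were seen.

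**Figure D3:**
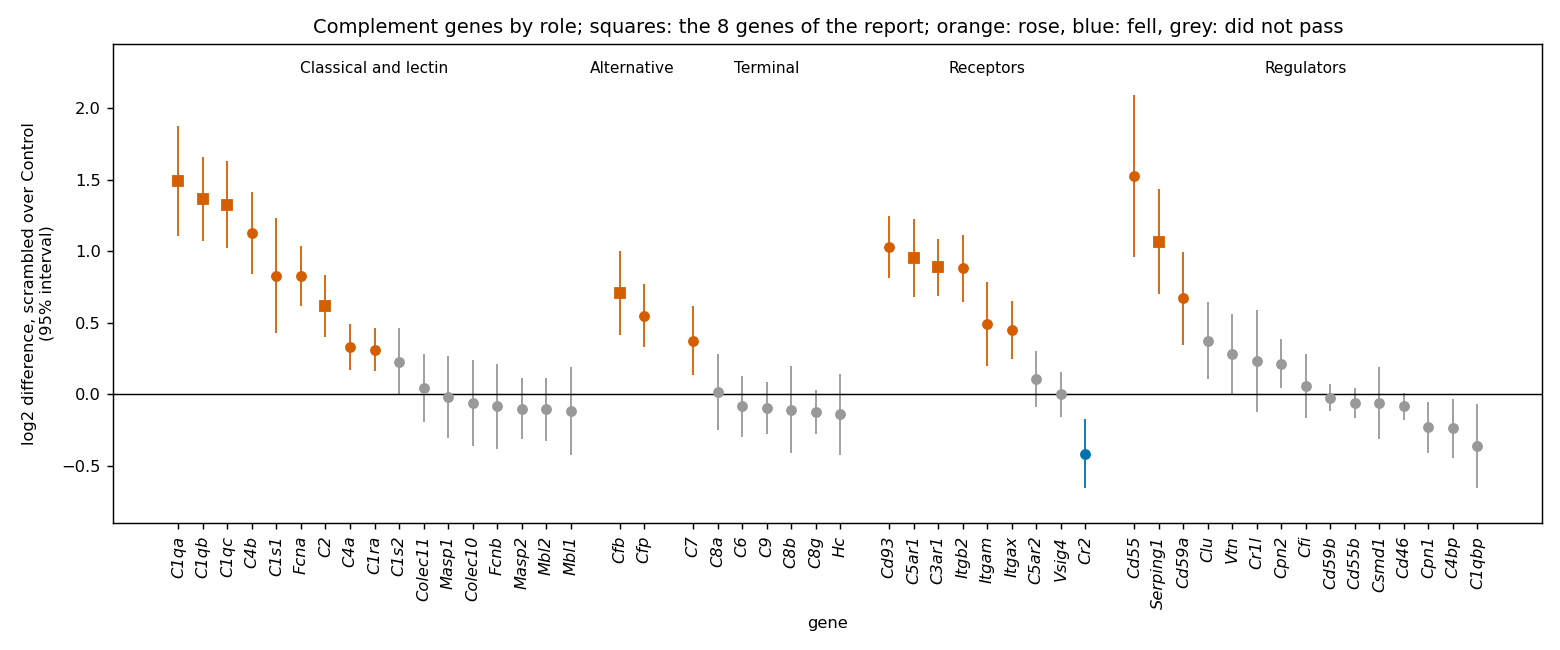
Log2 differences of scrambled over Control (vertical axis, point and 95% interval) for the 50 measured complement genes (horizontal axis), grouped by role and ordered by size, with squares for the 8 genes described in full. Genes that rose (orange) were 9 of 17 in the classical and lectin pathways, 2 of 2 in the alternative pathway, 1 of 7 terminal components, 6 of 9 receptors and 3 of 15 regulators, and Cr2 fell (blue).

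Markers of cell types were counted in the same comparisons, where 7.27%, 9.09%, 9.01% and 9.35% of all probe sets rose. Of 12 monocyte and macrophage markers, 9 rose in scrambled, 9 in siTNF, 10 in siTNF-OMe and 9 in siTNF-OMe-P. Their mean log2 level per array ran from 8.67 to 9.37 in Control and from 9.69 to 10.36 in the dosed groups, without overlap. Cd68 rose by 1.87 in scrambled over Control, Csf1r by 0.96 and Adgre1 by 1.01, while Cx3cr1 (-0.03) and Mertk (-0.27) did not pass. Of 12 neutrophil markers, 3, 5, 6 and 6 rose. All 8 smooth muscle markers rose in each group, as did 5, 7, 6 and 6 of 8 endothelial and 4, 4, 7 and 6 of 8 fibroblast markers.

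Of 12 epithelial markers 2, 2, 2 and 1 rose and 0, 0, 1 and 1 fell. Over all probe sets, 7.27% to 9.35% rose and 4.45% to 6.58% fell. Counts of 1 or 2 genes are therefore not read as a change in a cell type. Of 7 T and B cell markers 1 rose in each group while 2, 2, 2 and 1 fell. Of 7 adipocyte markers 2 rose in each group. Of 8 squamous epithelium markers, 0 rose in scrambled, 0 in siTNF, 6 in siTNF-OMe and 4 in siTNF-OMe-P. Of 7 hepatocyte markers none rose and 1, Ttr, fell in each group. Hepatocytes make many complement components, and scrambled replicate 3 had a mean hepatocyte marker level of 10.64, against 9.24 in the next array. In scrambled replicate 3, C1qa, C1qb, C2, Cfb and C3ar1 were at their scrambled medians. C1qc was below its scrambled median there, and C5ar1 and Serping1 were above theirs. The part of these cell types in the complement differences was not tested.

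Across the 36 arrays the 3 C1q chains followed each other closely, with Pearson r of 0.984 to 0.990 for the 3 pairs. After group and batch differences were removed, the r values were 0.955 to 0.969. Serping1 followed C1qa with r of 0.954 before and 0.930 after that step, and Cfb with 0.841 and 0.785. The receptors correlated with each other at 0.903 and 0.516, and C3ar1 with C1qa at 0.835 and 0.167, which was the weaker within groups. C2 had r of 0.569 with C1qa over all arrays and -0.316 within groups, and 0.496 and -0.127 with the neighbouring gene Cfb. With the receptors its r was 0.751 and 0.278 for C3ar1, and 0.665 and 0.03 for C5ar1, where Cfb had 0.574 and -0.02, and 0.582 and 0.09.

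The array SD moved with several of these genes. Within groups its r was 0.885 with Cfb, 0.778 with C1qa, 0.768 with Serping1, 0.693 with C1qb and 0.657 with C1qc, but -0.379 with C2, -0.182 with C3ar1 and -0.04 with C5ar1. All these values are over the same 36 arrays and are a description without a test. The part of the array SD in the correlations between genes was not tested.

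**Figure D4:**
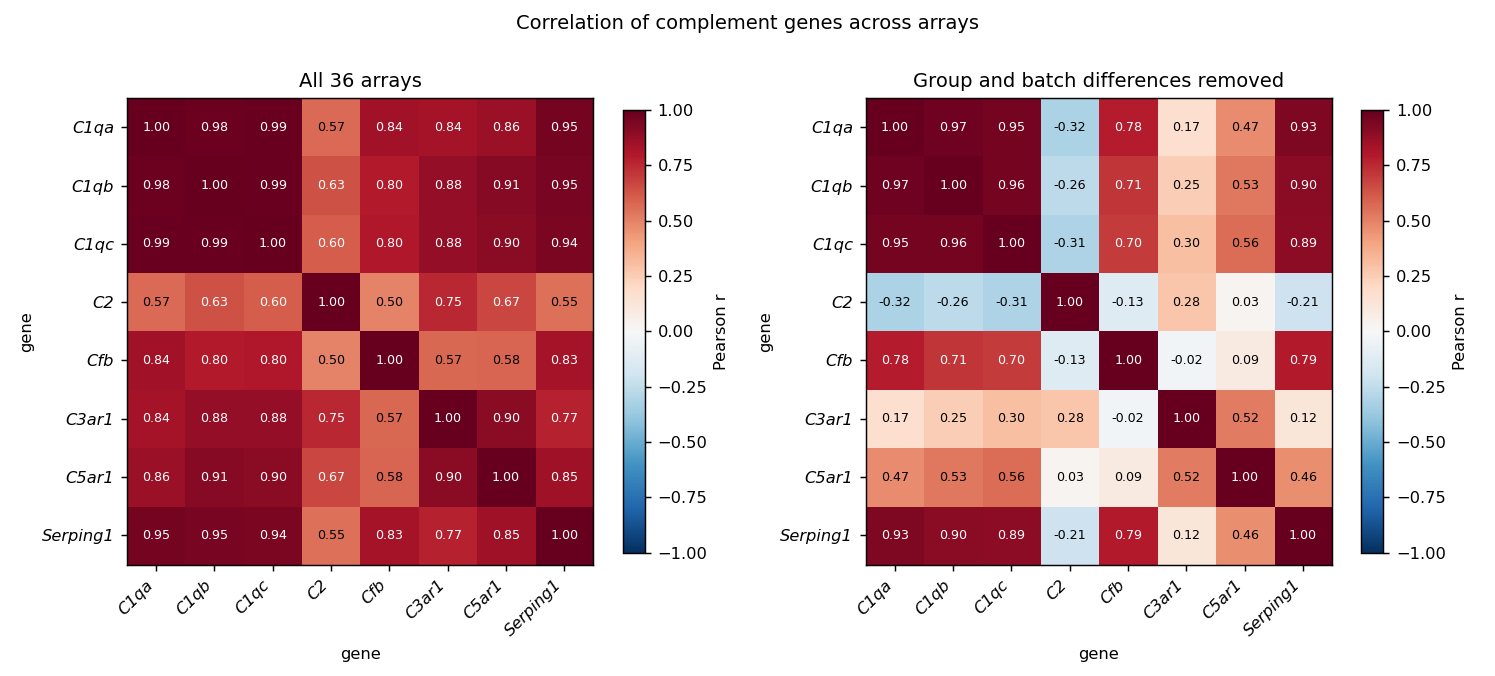
Pearson correlation of log2 signals between the 8 complement genes (both axes; colour and printed value) over all 36 arrays on the left and after group and batch differences were removed on the right. C1qa, C1qb, C1qc and Serping1 stay between 0.89 and 0.97 in the right panel, whereas C2 runs from -0.32 to 0.28 with the other genes.

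Of 19930 other genes, those most like each complement gene over the 36 arrays were named by Pearson r. For C1qa they were Lgmn (0.987), Mpeg1 (0.986) and Lyz2 (0.980), which encode a lysosomal protease, a pore-forming protein of phagocytes and lysozyme. C1qc had the same 3, led by Lgmn (0.994), and C1qb had Mpeg1 (0.990), Lgmn (0.989) and the Fc receptor chain Fcer1g (0.986). Over all genes the median r was -0.10 with C1qa, and 5% of genes exceeded 0.797. Serping1 was most like Ifnar2 (0.982), Bnip2 (0.975) and Csf1r (0.975), and Cfb like Sppl2a (0.955), Fuca1 (0.941) and Stard3nl (0.936). With Cfb, 5% of all genes exceeded 0.803. After group and batch differences were removed, r was 0.914 to 0.973 for the C1q chains. It was 0.963, 0.948 and 0.943 for Serping1 and 0.945, 0.914 and 0.911 for Cfb. These genes also followed the array SD within groups, and its part in the likenesses was not tested.

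The receptors and C2 had other nearest genes. C3ar1 was most like Tyrobp (0.943), a signalling adaptor of myeloid receptors, Wfdc17 (0.941) and Clec4n (0.939), with r of 0.585, 0.566 and 0.594 once group and batch differences were removed. C5ar1 was most like Ifitm1 (0.966), Plek (0.963) and Serpina3n (0.959), with r of 0.819, 0.827 and 0.804 after the same step. C2 was most like Il18bp (0.918), the decoy of interleukin 18, the Fc receptor Fcgr1 (0.877) and Oasl2 (0.870). Within groups their r with C2 was 0.789, 0.731 and 0.669, while C2 had -0.316 to 0.278 with the other complement genes. Il18bp, Fcgr1 and Oasl2 were picked for high r with C2 on the same arrays, so their higher values are no test.

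The labels give each animal's MPO activity and its colon length, which shortens in DSS colitis. MPO activity ran from 0.0310 to 1.35 U per mg in the 27 dosed animals. Each of the 8 genes was related to both measures in these animals, which gives 16 relations, with two-sided permutation p from 100000 resamples. C2 alone passed after adjustment, with MPO activity. The other genes had r with MPO of 0.172 (C5ar1) to 0.416 (Serping1), with adjusted p of 0.172 or more, and with colon length all 8 lay between -0.245 (Cfb) and 0.175 (C3ar1).

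For C2 and MPO activity, Pearson r was 0.728 (permutation p = 9.0e-05, adjusted p = 0.00144) and Spearman rho 0.628 (permutation p = 6.40e-04, adjusted p = 0.0102) over 27 animals. Without the 2 animals farthest from the median MPO activity, r was 0.648 (permutation adjusted p = 0.00800), and with 1 animal left out at a time it ran from 0.606 to 0.776 (largest permutation adjusted p = 0.0187). With group means removed r was 0.722 (permutation adjusted p = 0.00160). By group it was 0.871 in scrambled (n = 7), 0.584 in siTNF (n = 6), 0.469 in siTNF-OMe (n = 6) and 0.814 in siTNF-OMe-P (n = 8), given without p. Within hybridization batches it was 0.813 (n = 12) and 0.621 (n = 15), and within amplification batches 0.441 (n = 6), 0.799 (n = 12) and 0.817 (n = 9). Of these batches, hybridization batch 1 alone passed on its own (permutation adjusted p = 0.00528).

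Among all probe sets, 10 of 28853 (0.0347%), C2 included, had r with MPO activity of at least that of C2, and the median r was -0.02. C2 was picked out of the 16 relations on these same animals, so this rank is a description and no test. The p-values of C2 were adjusted over the 16 relations and not over all probe sets. The highest C2 signals of the dosed animals were in scrambled replicates 2 and 1, siTNF replicate 2 and siTNF-OMe replicate 6. The signal of the Mpo transcript itself was low and similar in the groups, at means of 6.95 to 7.02.

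**Figure D5:**
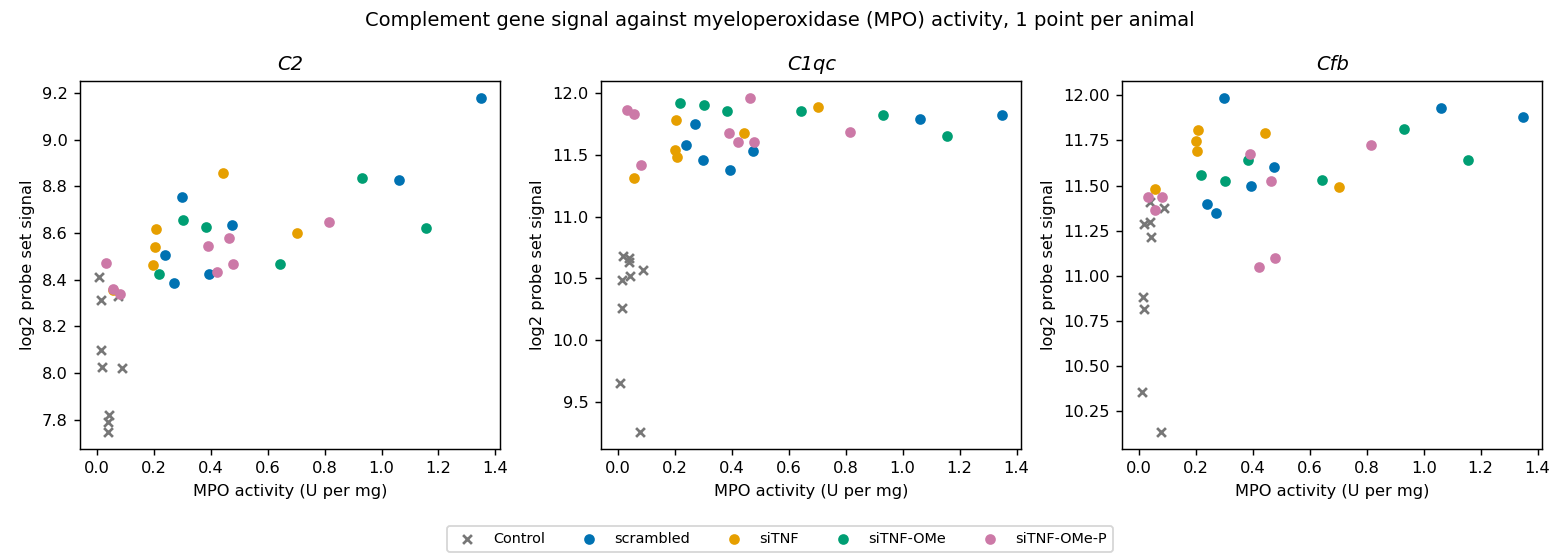
Log2 signal of C2, C1qc and Cfb (vertical axes) against MPO activity in U per mg (horizontal axis), with 1 point per animal, crosses for Control and filled circles for the siRNA-dosed groups. Among the 27 dosed animals C2 rises with MPO activity (r = 0.728), while C1qc (0.276) and Cfb (0.392) did not pass.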

How the data were processed

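Total RNA of the distal colon was taken through whole transcriptome amplification from 25 ng per sample, fragmented, biotin labelled and hybridised, per the labels' protocols, in 3 amplification and 2 hybridization batches. Log2 signals per probe set were deposited; the authors used Partek and RMA to make them, per the submitters' processing notes; versions, build and any batch removal are not given in the sources used here. Probe sets were named from the platform annotation (21789 with 1 gene, 1621 with several, 5443 with none), and no probe set was filtered out. Signal over background is not given, so low signals cannot be told from background.

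Differences were fitted with limma 3.58.1 in R 4.3.3 on all 36 arrays, with group, amplification batch and hybridization batch as terms and empirical Bayes moderation with a trend (28 residual degrees of freedom). Each of the 10 comparisons was tested two-sided and its p-values adjusted by Benjamini-Hochberg over 28853 probe sets, with a call at 0.05; intervals are 95%. A change called risen or fallen passed this test. Correlations with MPO activity and colon length used Python 3.11.15 and SciPy 1.17.1. Promoter letters were taken from RefSeq (GRCm38).

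All measured members are named; of other complement genes, the 3 highest and 3 lowest called per list in scrambled over Control, and for likeness the 3 genes of highest r per member. The members and lists were chosen with earlier results of these data known. The arrays with SD under 1.7 were left out as an alternative. Other alternatives were the batch terms, each batch alone, the 2 groups compared alone, quantile normalization, median centring, the lowest 40% of probe sets left out, array weights or array SD as a covariate, variance models, 1 probe set per gene, the replicate number as a block, thresholds, and each array left out. The fit was tested on simulated data.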

Additional observations from a re-analysis of the deposited data

Results flagged for a closer look

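Of 40 sets of arrays (8 genes in 5 groups) examined for a single array far from the others of its group, 2 held one; chance alone flags about 1 in 20 such sets. C5ar1 in siTNF replicate 3 was at 10.88 on the log2 scale, whereas the other 5 siTNF arrays ran from 9.74 to 10.01. Without it, C5ar1 in siTNF over Control was 0.96 in place of 1.13 and still passed (limma adjusted p = 1.95e-06). The same array had the highest mean level of the 12 neutrophil markers, 10.14 against 9.38 in the next array, and is one of the 8 arrays with an SD under 1.7. C1qc in siTNF-OMe replicate 1 was at 11.65, below the 11.82 to 11.92 of the other siTNF-OMe arrays, and without it the difference from Control was 1.60 in place of 1.54.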

How the results depend on the processing

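Over Control, the 8 genes in 4 comparisons gave 1824 values under the alternatives, of which 1757 kept direction and call, 67 lost the call and 0 reversed (0.03 to 1.99). Among the dosed groups all 2736 values (-0.45 to 0.48) stayed on the same side of the threshold. Outside single batches, the only calls lost were of Cfb: in siTNF-OMe-P over Control with median centring (0.43, limma adjusted p = 0.0801), with the 2 groups alone (0.44, 0.157), with adjustment over all 10 comparisons (0.0733), at a threshold of 0.01, without the narrow arrays and without single arrays as given above, and in siTNF over Control with the 2 groups alone (0.64, 0.0673). Array weights lowered Cfb to 0.33, 0.38, 0.33 and 0.21 and Serping1 in siTNF to 0.63. In place of 8 genes, 4 passed in siTNF and 5 in siTNF-OMe within hybridization batch 1, 5 in siTNF-OMe within amplification batch 1, and in amplification batch 3 alone 0 passed in scrambled, 0 in siTNF, 3 in siTNF-OMe and 0 in siTNF-OMe-P; these fits hold fewer arrays. Leaving out 1 array at a time gave 8 of 8 genes in 3 comparisons, 7 to 8 in siTNF-OMe-P over Control and 0 among dosed groups. Of the 16 relations, 1 passed in all dosed animals, and 0 within hybridization batch 2 and within amplification batches 1, 2 and 3. Over all probe sets, 14417 passed in scrambled over Control without the narrow arrays and 16262 with array weights, against 3384. With the replicate number as a block, 8 genes passed in each comparison over Control and 0 in the others; same-numbered arrays of scrambled and Control correlated from -0.697 to 0.645, with 2 of 7 closest to their own number. In siTNF and scrambled they correlated from 0.0932 to 0.642 (mean 0.301, against -0.05 for other numbers), with 5 of 6 over 0.1. In none of the 10 comparisons were all same-numbered arrays over 0.1, and the numbers were not taken as pairing the animals. Averaging several probe sets of a gene was not run, since each has 1. Signal over background is not given, and the number of arrays, 36, limits what can be seen.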
